A study of Caenorhabditis elegans with 6 samples.

Results

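The major sperm protein genes of Caenorhabditis elegans and the small sperm gene families named with them were described in whole larvae of an unc-30 mutant and of the wild type. Members were all genes of the count files whose symbol is msp, msd, ssp or nspd followed by a number, together with gsp-3 and gsp-4. This gave 59 of 46911 genes: 31 msp, 4 msd, 12 ssp and 10 nspd genes and the 2 gsp genes. Symbols came from the annotation, which gives the symbol msd-1 to 2 genes and the symbol ssp-9 to 2 genes, so those are named with their WormBase identifiers.

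Sperm of this nematode crawl instead of swimming. Major sperm protein (MSP), encoded by the msp genes, polymerises into the filaments that push the crawling sperm forward, and MSP released from sperm also acts as a signal that starts oocyte maturation and contraction of the gonadal sheath. Hermaphrodites make sperm in the fourth larval stage (L4) and switch to oocytes as adults, and the msp genes are transcribed in spermatocytes before the meiotic divisions. The msd genes encode short proteins with an MSP domain, ssp stands for sperm-specific family, class P, and nspd for nematode-specific peptide family, group D. The genes gsp-3 and gsp-4 encode sperm-enriched catalytic subunits of protein phosphatase 1 that are needed in sperm meiosis.

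The series compared RNA of 3 libraries of strain VC295, which carries the allele unc-30(ok613) on chromosome IV, with 3 libraries of strain N2, the wild type. All were whole untreated L4 animals from timed egg laying, fed E. coli OP50 and grown at 20 °C. The strain label set the groups, because the genotype label names ok613 for all 6 samples. The gene unc-30 encodes a homeodomain protein that sets the identity of a class of GABAergic motor neurons, and the comparison asks which genes differ in its mutant. In RNA of whole animals, fewer cells of a type and less RNA per cell cannot be told apart. The labels do not say whether replicates were separate cultures. A p-value here sets the difference between the groups against the spread among libraries within a group, and that spread may be technical.

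The mutant libraries held 20188810 to 24498576 counts and the wild-type libraries 17318736 to 26377332. The mutated gene unc-30 had 20, 24 and 17 counts in the mutant, replicates 1 to 3 in order, against 23, 26 and 17 counts in wild type; all triplets of values follow this order. Its log2 fold change was 0.88 ± 0.42 (SE), with an adjusted p of 0.128 by the quasi-likelihood test of edgeR with Benjamini-Hochberg adjustment over 14506 tested genes. Which part of the gene the allele removes was not known here, so this count does not check the labels. Every log2 fold change is that of the mutant relative to wild type, an adjusted p under 0.05 is a call, and levels are counts scaled to a library total of 1000000 (CPM) after correction by the trimmed mean of M-values (TMM). The mutant's correction factors were 0.655 to 0.760 and those of wild type 1.38 to 1.49. With total counts in place of TMM, the median over all tested genes moves from -0.10 to -1.11, a shift of -1.01. Values under both scalings are therefore given for each family.

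The msp genes form clusters in the genome. Of the 31 msp genes, 13 lie on chromosome II and 18 on chromosome IV in the WBcel235 annotation, and members of any family lie on chromosomes I to V, with none on X. Of all 59 members, 54 have a single exon. The annotated length is 384 bases, which is 127 codons and a stop codon, in 28 of the 31 msp genes. Members that follow each other within 200000 bases form 4 blocks that hold every msp gene. On chromosome II, a block from 4785898 to 5200180 holds 10 msp genes and a second from 5797065 to 5810330 holds msp-63, msp-142 and msp-64. On chromosome IV, a block from 4994371 to 5316906 and another from 9689015 to 10269187 hold 9 msp genes each. Near-identical copies can share reads, and the sources used here do not say how such reads were split. Family sums per library are therefore given beside single genes.

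Over all members and with all 6 libraries, the share that fell was close to that over all tested genes. Of the 59 members, 55 passed the filter on low counts, 11 of these fell in the mutant by edgeR, none rose and 44 did not pass, while 20.9% of all tested genes fell and 17.1% rose. No member rose at an unadjusted p under 0.05 either, nor with DESeq2 or limma-voom. All mutant libraries lay below all wild-type libraries for 11 members, against 28.2% of all tested genes. Of the 11 members that fell, 8 were nspd genes, 2 were msd genes, 1 was an ssp gene, and none was an msp or gsp gene. Without mutant replicate 1, 21 of 55 members and 3168 of 15086 genes fell. Without mutant replicate 2, 3 of 55 members and 1424 of 14878 genes fell, without mutant replicate 3 these were 3 members and 1432 of 15075 genes, and without wild type replicate 3 they were 5 members and 1882 of 14597 genes. With scaling by total counts, 34 of 55 members fell and none rose, where 56.3% of all tested genes fell and 3.44% rose. On that scale the groups did not overlap, with the mutant lower, for 34 members and for 61.9% of all tested genes.

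**Figure D1:**
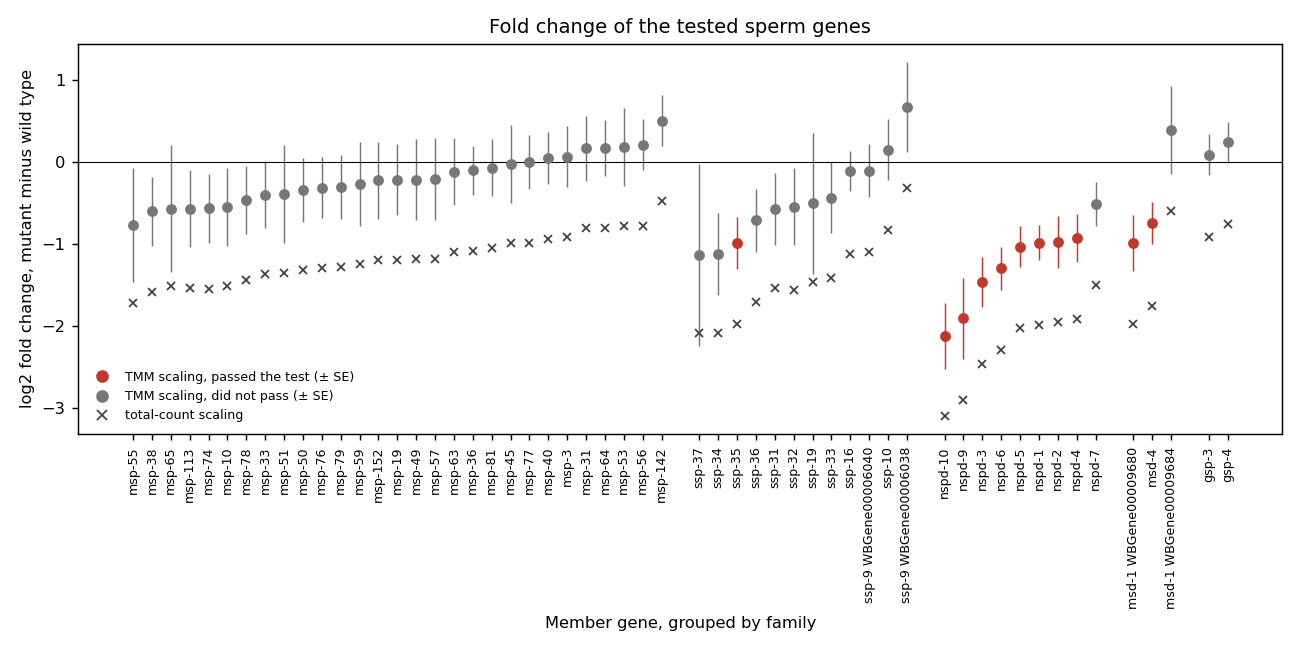
Log2 fold change (mutant minus wild type, edgeR with TMM scaling) of each tested member, with its standard error, grouped by family, red where the adjusted p was under 0.05, and with crosses for scaling by total counts. The 8 called nspd genes lie at or below -0.93 by TMM, while the 29 msp genes spread from -0.77 to 0.50 with none called.

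The msp genes, which encode the cytoskeletal and signalling protein itself, did not pass the test in any member. The 31 genes summed to 4796, 2072 and 2163 CPM in the mutant and to 2990, 2283 and 4693 CPM in wild type. Mutant replicate 1 was the highest of the 6 libraries, with wild type replicate 3 close behind. The groups overlapped through mutant replicate 1, and the other 2 mutant libraries lay below all wild-type libraries. The means were 3010 ± 1547 CPM for the mutant and 3322 ± 1239 CPM for wild type (SD, n = 3), a log2 ratio of -0.14. As a part of all counts, msp genes took 0.364%, 0.145% and 0.142% in the mutant and 0.445%, 0.321% and 0.646% in wild type, and on this scale of total counts the log2 ratio was -1.12, again with overlap between the groups, because mutant replicate 1 lay above wild type replicate 2.

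Of the 29 msp genes tested, 0 were called by edgeR, 0 by DESeq2 and 0 by limma-voom, and 0 had an unadjusted p under 0.05 in the edgeR test. The median log2 fold change was -0.22, with 22 negative values, against -0.10 for all tested genes. The genes msp-32 and msp-58 had at most 2 counts in any library and were not tested. The 2 high libraries were high across the family. Of 29 msp genes with at least 10 counts, mutant replicate 1 was the highest of the 6 libraries in 14 and wild type replicate 3 in 15. Without mutant replicate 1, 3168 of 15086 tested genes fell, with a median of -0.08. Among the msp genes 8 were called lower in that omission, and the family's median was -0.72. Leaving out mutant replicate 2 gave a median of 0.09, leaving out mutant replicate 3 gave 0.07 and leaving out wild type replicate 3 gave 0.09, with 0 calls each time. Scaled by total counts, 13 of the 29 were called lower, with a median of -1.19, where 56.3% of all tested genes were called lower, with a median of -1.11.

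The msp genes with the highest levels had log2 fold changes near 0. The gene msp-31 (WBGene00003429, chromosome II, 4916179 to 4916562, minus strand) was at 376, 180 and 175 CPM in the mutant and 187, 143 and 323 CPM in wild type, which gave a log2 fold change of 0.17 with an SE of 0.40 (edgeR adjusted p = 0.762). The gene msp-81 (WBGene00003467, chromosome IV, 9836034 to 9836417, minus strand) was at 292, 155 and 153 CPM in the mutant and 160, 168 and 304 CPM in wild type, with a log2 fold change of -0.07. In both genes mutant replicate 1 and wild type replicate 3 stood above the other 4 libraries, which lay close together. The log2 fold change was 0.04 for msp-40, -0.10 for msp-36 and -0.01 for msp-77, the smallest of the family. The largest was that of msp-55 (WBGene00003448, chromosome IV, 5055631 to 5056014, minus strand), at 59.1, 10.6 and 14.5 CPM in the mutant and 58.8, 23.7 and 60.7 CPM in wild type, or -0.77 ± 0.69 (SE; edgeR adjusted p = 0.412). Here mutant replicates 2 and 3 were the lowest libraries and mutant replicate 1 was within the wild-type range. Without mutant replicate 1, msp-55 was called lower. The gene msp-142 (WBGene00003469, chromosome II, 5797927 to 5798310, plus strand) had the highest positive value, 0.50 ± 0.31 (SE; edgeR adjusted p = 0.231), which turned to -0.48 by total counts. This gene was named after its values were seen.

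**Figure D2:**
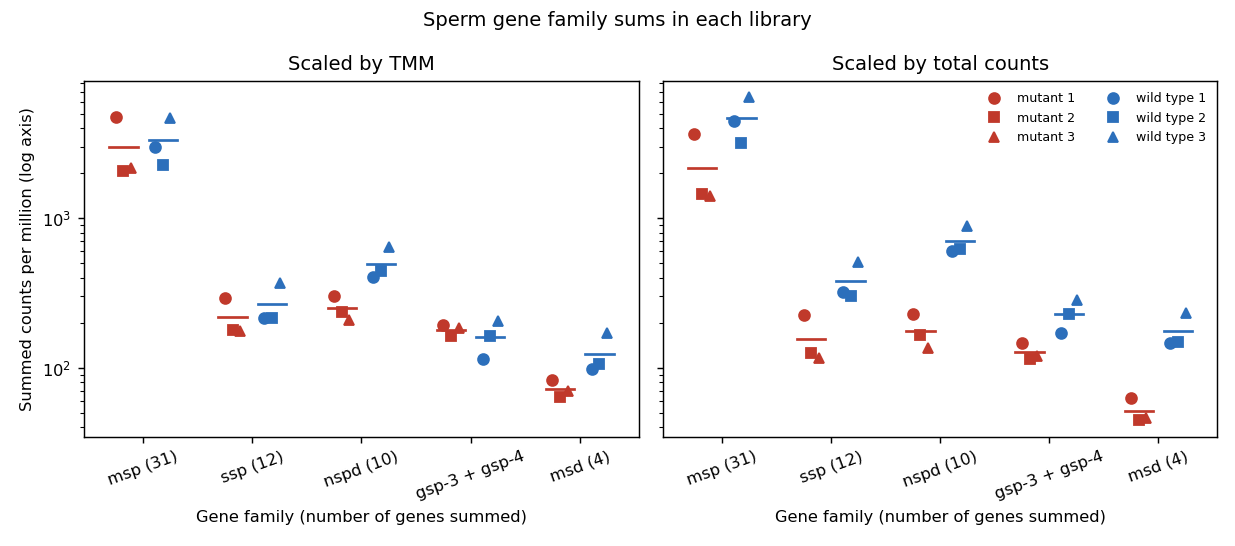
Summed level of each family in each of the 6 libraries, in CPM scaled by TMM and by total counts (log axes), with points for libraries and lines for the group means. By TMM the msp sums of the groups overlap because mutant replicate 1 (4796 CPM) lies above all wild-type libraries, whereas the 3 mutant nspd sums (208 to 303 CPM) all lie below the 3 wild-type sums (405 to 641 CPM).

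The makeup of the msp pool was compared as shares of the msp sum, which do not depend on how libraries are scaled. The second chromosome II block held 5.25%, 6.61% and 6.19% of msp counts in the mutant and 3.78%, 5.01% and 4.17% in wild type, so that every mutant library lay above every wild-type library. The first chromosome II block was also higher in the mutant without overlap, at 34.3 ± 0.948% against 32.6 ± 1.09% (SD, n = 3). The groups overlapped for both chromosome IV blocks, with the first at 30.3%, 21.6% and 23.2% in the mutant and 33.5%, 25.2% and 28.1% in wild type. Within the mutant, replicate 1 had a larger share in that block than replicates 2 and 3. With 3 libraries against 3, an exact two-sided permutation test cannot give a p below 0.1, so the absence of overlap is given as a description.

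Shares of single msp genes depend on each other, because a higher share of some genes means a lower share of others. Of the 31 genes, 3 had a higher share in every mutant library than in any wild-type library (msp-3, msp-31 and msp-142), 7 had a lower one (msp-10, msp-33, msp-38, msp-50, msp-76, msp-78 and msp-113), and 21 overlapped. How many shares would separate without a difference between the groups was not tested. The share of msp-142 was 2.28%, 3.14% and 2.86% in the mutant and 1.48%, 2.02% and 1.63% in wild type. That of msp-38 was 1.28%, 1.20% and 1.26% against 1.92%, 1.55% and 1.69%. The share of msp-65 was 1.70% in mutant replicate 1 but 0.533% and 0.595% in mutant replicates 2 and 3, against 2.10%, 1.41% and 1.31% in wild type. For msp-55, too, mutant replicates 2 and 3 had the lowest shares of the 6 libraries, at 0.510% and 0.672%. Since copies can share reads, a share of a single gene also depends on how reads were assigned between copies, and that part was not tested.

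**Figure D3:**
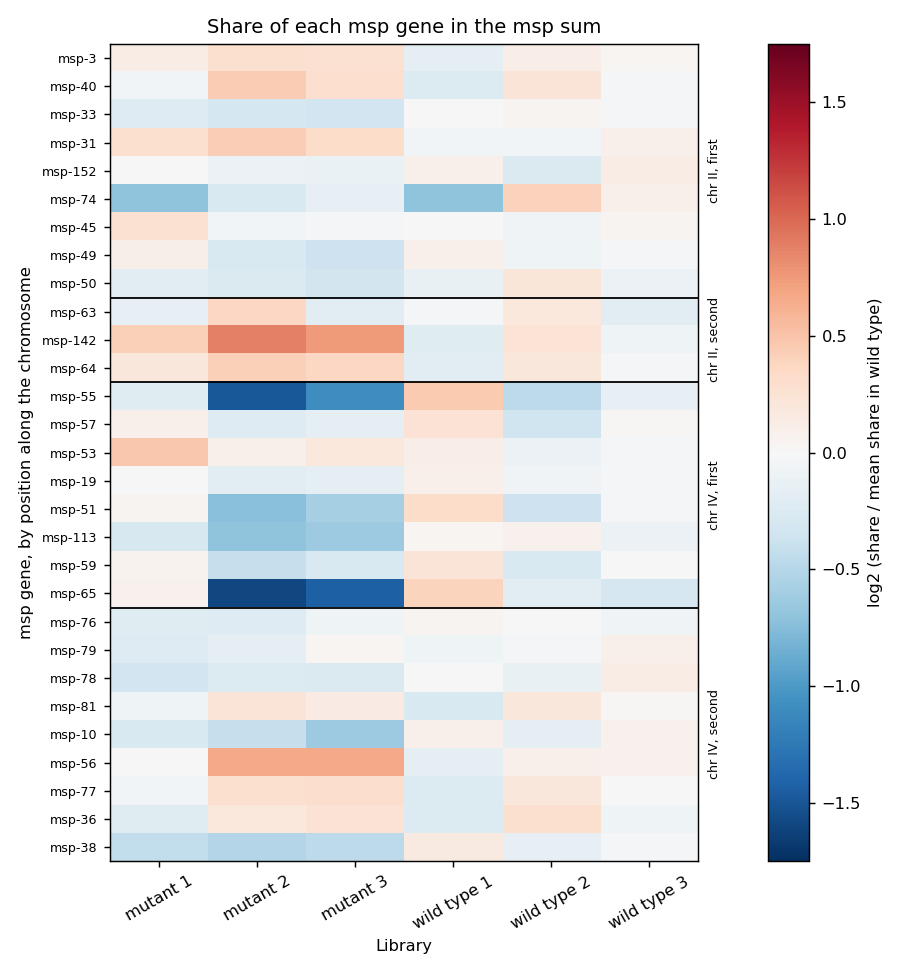
Share of the msp count sum held by each msp gene in each library, shown as the log2 ratio to that gene's mean share in wild type, for the 29 tested msp genes in genome order. In the mutant libraries msp-142 and msp-64 of the second chromosome II block are above their wild-type mean, and msp-55 and msp-65 of the first chromosome IV block are low in mutant replicates 2 and 3.

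The nspd genes encode short nematode-specific peptides. Of 10 members, 9 were tested, 8 fell and none rose, where 20.9% of all tested genes fell. The family sum was 303, 236 and 208 CPM in the mutant and 405, 442 and 641 CPM in wild type. Every mutant library lay below every wild-type library, with means of 249 ± 48.8 and 496 ± 127 CPM (SD, n = 3), which is 1.99-fold lower in the mutant. By total counts the sum was 3.96-fold lower and all 9 tested genes fell, where 56.3% of all tested genes fell. The median log2 fold change of the 9 genes was -1.03, against -0.10 for all tested genes. By total counts it was -2.03, against -1.11 for all tested genes.

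The largest fall of any member was that of nspd-10 (WBGene00020860, chromosome I, 10878105 to 10878326, minus strand). It was at 11.1, 5.67 and 3.94 CPM in the mutant and 31.2, 23.1 and 36 CPM in wild type, 4.35-fold lower in the mutant (log2 fold change -2.12 ± 0.40 SE; edgeR adjusted p = 0.00584). The lowest wild-type library stood above the highest mutant library, as in every called nspd gene. The nspd gene with the lowest counts of those tested, nspd-9, was at 2.12, 0.935 and 0.757 CPM in the mutant and 6.45, 2.80 and 5.14 CPM in wild type (edgeR adjusted p = 0.0183). The genes nspd-3 (2.76-fold lower, edgeR adjusted p = 0.00805) and nspd-6 (2.46-fold lower, edgeR adjusted p = 0.00688) followed, and these 3 genes were named beyond the rule for naming.

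Among the more abundant nspd genes, nspd-1, nspd-5 and nspd-2 fell by about the fold of the family sum. The gene nspd-7, also among them, was 1.43-fold lower and was not called. The gene nspd-1 (WBGene00022754, chromosome I, 6097579 to 6097791, minus strand) was at 52.6, 47.9 and 41.1 CPM in the mutant and 78.2, 91.5 and 110 CPM in wild type (log2 fold change -0.98 ± 0.22 SE; edgeR adjusted p = 0.00997). The gene nspd-5 (WBGene00017386, chromosome II, 4860145 to 4860360, minus strand) was at 43.9, 38.4 and 34.7 CPM against 63.9, 69.9 and 106 CPM (-1.03 ± 0.25 SE; edgeR adjusted p = 0.0142). The gene nspd-2 (WBGene00010633, chromosome IV, 9844060 to 9844272, plus strand) was at 74.0, 41.2 and 40.3 CPM against 83.0, 86.9 and 136 CPM (-0.97 ± 0.31 SE; edgeR adjusted p = 0.0390). In nspd-2 mutant replicate 1 came close to the wild-type range, and in nspd-1 and nspd-5 the mutant libraries lay near each other. Leaving out mutant replicate 2 or mutant replicate 3 ended the calls of these 3 genes, and leaving out wild type replicate 3 ended that of nspd-2. The tested member that did not pass, nspd-7, was at 63.2, 52.4 and 44.4 CPM in the mutant and 61.8, 63.0 and 104 CPM in wild type (-0.51 ± 0.27 SE; edgeR adjusted p = 0.159), with overlap between the groups. The gene nspd-8 had 0 counts in all 6 libraries, which allows at most 3 counts in each, or 0.0764 to 0.227 CPM.

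The nspd genes are scattered, and the 8 called genes lie on chromosomes I to IV. Some lie among msp genes: nspd-5 lies between msp-40 and msp-31 and nspd-2 lies near msp-81, and none of these 3 msp genes was called. The count of called nspd genes depended on the libraries. It was also 8 when mutant replicate 1, wild type replicate 1 or wild type replicate 2 was left out. Leaving out mutant replicate 2 or mutant replicate 3 gave 3 calls and leaving out wild type replicate 3 gave 5. Over all genes these omissions gave 1424 of 14878, 1432 of 15075 and 1882 of 14597 lower, against 3035 of 14506 with all 6 libraries. The log2 ratio of the nspd family sums lay between -1.12 and -0.77 when each library was left out in turn.

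**Figure D4:**
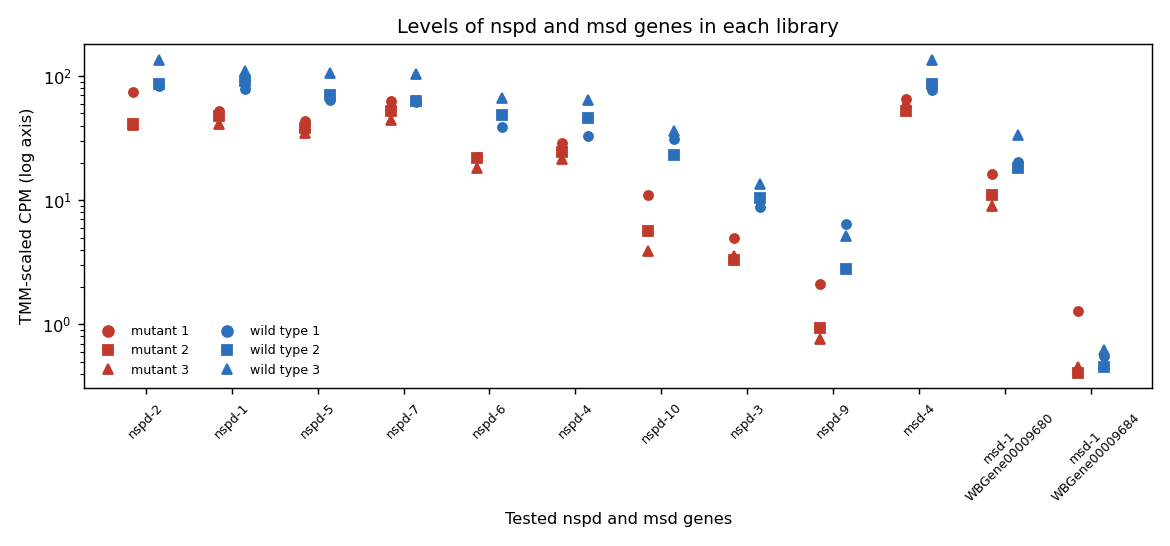
Level of the nspd and msd genes in each library (TMM-scaled CPM, log axis), with points for single libraries of the mutant and of wild type. The groups are separate for nspd-10 (3.94 to 11.1 against 23.1 to 36 CPM) and overlap for nspd-7 (44.4 to 63.2 against 61.8 to 104 CPM).

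The msd genes, which encode proteins with an MSP domain, were lower in part. The family sum was 82.5, 63.7 and 70.2 CPM in the mutant and 97.9, 106 and 170 CPM in wild type, with no overlap. The means were 72.1 ± 9.54 and 124 ± 39.3 CPM (SD, n = 3), 1.73-fold lower in the mutant, and by total counts the log2 ratio was -1.79. Of 4 members 3 were tested and 2 fell, where 20.9% of all tested genes fell. The gene msd-4 (WBGene00016447, chromosome III, 4868414 to 4868743, minus strand) was at 64.9, 52.3 and 60.7 CPM in the mutant and 77.2, 87.2 and 135 CPM in wild type (log2 fold change -0.75 ± 0.26 SE; edgeR adjusted p = 0.0470). The gene msd-1 (WBGene00009680, chromosome IV, 10022349 to 10022678, minus strand) was at 16.3, 11 and 9.01 CPM against 20.2, 18.1 and 33.8 CPM (-0.99 ± 0.34 SE; edgeR adjusted p = 0.0484).

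Both msd calls stood close to the threshold. With DESeq2 size factors in edgeR neither passed, at adjusted p = 0.0546 for msd-4 and 0.0534 for msd-1 WBGene00009680, and 1 of the 2 was called with DESeq2 and 1 with limma-voom. The number of called msd genes was 0 without mutant replicate 2, without mutant replicate 3 or without wild type replicate 3. It was 1 without mutant replicate 1 or without wild type replicate 1. Over all tested genes the numbers that fell were 1424, 1432, 1882, 3168 and 2555 in the same order, against 3035 with all 6 libraries. The other gene with the symbol msd-1 (WBGene00009684), which RefSeq names msd-3, had 20, 7 and 6 counts in the mutant and 22, 11 and 20 in wild type and was not called (log2 fold change 0.38 ± 0.53 SE; edgeR adjusted p = 0.591). The gene msd-2 had 0 counts in all libraries, with the same upper limit as nspd-8. It overlaps another annotated gene, F44D12.16, on the same strand, and reads in an overlap may not have been counted for either gene.

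The ssp genes encode small sperm-specific proteins. Their sum was 295, 179 and 177 CPM in the mutant and 216, 217 and 371 CPM in wild type. Mutant replicate 1 lay within the wild-type range, so the groups overlapped at 217 ± 67.1 and 268 ± 89.4 CPM (SD, n = 3). By total counts they did not overlap, with a log2 ratio of -1.29. All 12 members were tested, 1 fell and none rose, where 20.9% of all tested genes fell. By total counts 8 fell, against 56.3% of all tested genes. The count of called genes was 4 without mutant replicate 1 and 0 without mutant replicate 2, mutant replicate 3 or wild type replicate 3. Over all tested genes the numbers that fell were 3168, 1424, 1432 and 1882 in the same order, against 3035 with all 6 libraries.

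The called gene was ssp-35 (WBGene00010091, chromosome V, 12263500 to 12263823, minus strand), at 21.8, 16.3 and 16.3 CPM in the mutant and 30.3, 25.6 and 52.1 CPM in wild type (log2 fold change -0.99 ± 0.32 SE; edgeR adjusted p = 0.0377). All 3 mutant libraries lay below the lowest wild-type library. The gene ssp-34 was at 31.2, 9.64 and 10.6 CPM against 29, 29.3 and 53.8 CPM, with the mutant's replicate 1 above 2 of the wild-type libraries (-1.12 ± 0.50 SE; edgeR adjusted p = 0.109). The value with the largest size in the family was that of ssp-37, at -1.14 ± 1.11 (SE; edgeR adjusted p = 0.445), with 77, 4 and 3 counts in the mutant and 228, 37 and 147 in wild type. The most abundant members were close to no difference: ssp-16 had a log2 fold change of -0.11 and ssp-10 one of 0.14. The gene ssp-9 WBGene00006040, which RefSeq names ssp-11, had a value of -0.11.

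The phosphatase genes gsp-3 and gsp-4 did not pass the test. The gene gsp-3 (WBGene00021113, chromosome I, 4709259 to 4710712, minus strand) was at 97.8, 89.4 and 100 CPM in the mutant and 61.7, 94.5 and 114 CPM in wild type, which gave a log2 fold change of 0.09 with an SE of 0.25 (edgeR adjusted p = 0.799). The gene gsp-4 (WBGene00020187, chromosome I, 3838237 to 3839673, minus strand) was at 94.2, 73.3 and 83.1 CPM against 52.3, 68.2 and 92.0 CPM (0.24 ± 0.25 SE; edgeR adjusted p = 0.474). The mutant libraries of both genes lay within the range of the wild-type libraries or just above it. By total counts both fell, with log2 fold changes of -0.92 for gsp-3 and -0.76 for gsp-4. The median over all tested genes on that scale was lower than both, at -1.11, and 56.3% of them fell. The broadly expressed catalytic subunit gsp-1, which is no member, was at 406, 383 and 459 CPM in the mutant and 169, 154 and 142 CPM in wild type, and rose 2.69-fold (edgeR adjusted p = 0.00254), but by total counts it was not called (log2 fold change 0.40; edgeR adjusted p = 0.0835).

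Ratios between family sums within a library do not depend on the scaling. Per 100 msp counts there were 6.33, 11.4 and 9.64 nspd counts in the mutant and 13.6, 19.3 and 13.7 in wild type. All mutant ratios lay below all wild-type ratios, with means of 9.12 ± 2.58 and 15.5 ± 3.31 (SD, n = 3). The difference between the groups' means of log2 ratios was -0.79, and between -0.97 and -0.55 when each library was left out in turn. The msd ratio was 1.72, 3.07 and 3.24 per 100 msp counts in the mutant and 3.27, 4.63 and 3.61 in wild type, where the highest mutant and the lowest wild-type library nearly touched. The ssp ratios overlapped at 7.67 ± 1.34 and 8.20 ± 1.17, and so did those of gsp-3 and gsp-4 at 6.78 ± 2.43 and 5.11 ± 1.77 (SD, n = 3). These ratios were not tested, for the reason given for the shares.

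Levels per kilobase of annotated length set the families side by side. The summed level in CPM per kilobase was 8660 ± 3229 for msp, 2310 ± 592 for nspd, 810 ± 271 for ssp, 377 ± 119 for msd and 142 ± 40.8 for the 2 gsp genes in wild type (SD, n = 3). In the mutant it was 7845 ± 4031, 1163 ± 228, 657 ± 203, 218 ± 28.9 and 158 ± 13.2 in the same order, so the order of the families was the same in both genotypes. In wild type the highest single members were msp-31 at 566 ± 244 and msp-81 at 548 ± 212 CPM per kilobase, and nspd-2 at 478 ± 138 and nspd-1 at 438 ± 75.9 did not differ from these beyond the spread. In the mutant nspd-2 was at 243 ± 90.1 and nspd-1 at 222 ± 27.1, against 635 ± 298 for msp-31. All msp, msd, ssp and nspd genes are short, and log2 fold changes moved with length in these libraries. With all tested genes split into 4 equal groups by annotated length, the shortest group had a median of 0.29, with 12.1% called lower, and the longest had -0.46, with 32.7% called lower. The part of length in the members' values was not tested.

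A list of genes with other functions in sperm, outside the member families, had 34 tested genes, of which 18 fell and none rose (also 0 at an unadjusted p under 0.05, with DESeq2 and with limma-voom), with a median of -1.27 by TMM, where 20.9% of all tested genes fell. By total counts 30 fell, with a median of -2.27, where 56.3% of all tested genes fell. The TMM count was 13 without mutant replicate 2 and 12 without mutant replicate 3 or wild type replicate 3. The largest fall was that of spe-11, which encodes a sperm factor needed by the embryo, at 3.15, 2.05 and 1.21 CPM in the mutant and 27.3, 15.3 and 44.4 CPM in wild type (13.5-fold lower; edgeR adjusted p = 0.00267). The mutant libraries of spe-11 were all below the wild-type libraries. The gene spe-12, needed for sperm activation, was 11.1-fold lower (edgeR adjusted p = 0.00504). As a sum, this list overlapped between the genotypes at 28.3 ± 7.94 and 29.2 ± 7.27 counts per 100 msp counts (SD, n = 3). A sum weighs its most abundant genes most. In this list the genes with the highest levels were not called by TMM, at log2 fold changes of 0.24 and 0.21. By total counts these values were -0.75 and -0.78.

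Among regulators of sperm fate and of msp transcription, calls by TMM went in both directions. Of 17 tested, 2 fell and 2 rose, with a median of -0.19, where 20.9% of all tested genes fell and 17.1% rose. By total counts 12 fell and none rose, where 56.3% of all tested genes fell and 3.44% rose. The GATA factor gene elt-1, whose product acts on msp promoters, was at 4.37, 3.04 and 5.37 CPM in the mutant and 8.30, 6.37 and 9.71 CPM in wild type, 1.91-fold lower with no overlap (edgeR adjusted p = 0.0492). Leaving out any library other than wild type replicate 2 ended this call. The sex determination gene tra-2 was 2.44-fold lower (edgeR adjusted p = 0.0351), a call lost without mutant replicate 2, mutant replicate 3 or wild type replicate 1. The spermatogenesis regulator fog-3 was 2.06-fold higher (edgeR adjusted p = 0.0258) and fem-2, which promotes male fate, was 1.94-fold higher (edgeR adjusted p = 0.0159), but by total counts their log2 fold changes were 0.02 and -0.05. The call of fog-3 was lost without mutant replicate 2, mutant replicate 3, wild type replicate 1 or wild type replicate 3, and that of fem-2 without wild type replicate 3. The spermatogenesis regulator spe-44 did not pass, with -0.34 (edgeR adjusted p = 0.345).

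Among genes of MSP reception and oocyte maturation signalling, calls went in both directions. Of 15 tested, 2 fell and 2 rose by TMM, with a median of -0.04, where 20.9% of all tested genes fell and 17.1% rose. By total counts 6 fell and 1 rose, where 56.3% of all tested genes fell and 3.44% rose. The adenylate cyclase gene acy-4, needed in sheath cells for the response to MSP, was 3.84-fold lower (edgeR adjusted p = 0.00533), and the ephrin gene efn-3 was 2.80-fold lower (edgeR adjusted p = 0.0344). The protein kinase A subunit gene kin-1 was 2.92-fold higher (edgeR adjusted p = 0.00281) and the G protein gene gsa-1 2.40-fold higher (edgeR adjusted p = 0.0380), with overlap between the groups for gsa-1. By total counts the log2 fold change was 0.52 for kin-1, still called, and 0.23 for gsa-1, not called. The calls of efn-3 and gsa-1 were lost without mutant replicate 2, mutant replicate 3, wild type replicate 1 or wild type replicate 3. The gene of the MSP receptor VAB-1, vab-1, did not pass, at 0.39 by TMM (edgeR adjusted p = 0.392) and -0.61 by total counts.

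Markers of other cell types are described beside the members. Of 20 oocyte markers none was called in either direction by edgeR, DESeq2 or limma-voom. None had an unadjusted p under 0.05 in the edgeR test by TMM. Without mutant replicate 1, 6 were called lower, where 3168 of 15086 tested genes fell. By total counts none was called, with 4 lower at an unadjusted p under 0.05 and a median log2 fold change of -1.09. On that scale 56.3% of all tested genes fell, with a median of -1.11. The summed level of the oocyte markers by TMM was 7406, 1529 and 1644 CPM in the mutant and 6013, 2267 and 2191 CPM in wild type. By TMM, mutant replicate 1 thus had both the highest msp sum and the highest oocyte sum. Wild type replicate 3, with the highest wild-type msp sum, had the lowest oocyte sum of its group. By total counts, mutant replicate 1 was highest in neither sum. The highest msp sum was then that of wild type replicate 3, at 6460 CPM against 3644 CPM in mutant replicate 1. The highest oocyte sum was that of wild type replicate 1, at 8949 CPM against 5627 CPM in mutant replicate 1. The part of oocyte RNA in the msp values was not tested. Among 17 germ cell markers of both sexes 5 fell (glh-2, him-3, syp-1, syp-2 and spo-11) and none rose. Over all tested genes 20.9% fell and 17.1% rose. The sums of this list were 1743 to 2336 CPM for the mutant and 1793 to 2132 CPM for wild type. By total counts 14 of the 17 fell, where 56.3% of all tested genes fell, and the sum was 2.06-fold lower without overlap. By TMM, 1424 of all tested genes fell without mutant replicate 2 and 1432 without mutant replicate 3. These counts were 2555 without wild type replicate 1 and 1882 without wild type replicate 3. In this list they were 3, 2, 3 and 3 in the same order. The largest falls were those of syp-1, of the synaptonemal complex (5.26-fold; edgeR adjusted p = 0.00269), and spo-11, which makes the meiotic breaks (3.91-fold; edgeR adjusted p = 0.00992). Per 100 counts of this list there were 205, 117 and 124 msp counts in the mutant and 143, 107 and 262 in wild type, with overlap.

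Of 12 male-specific markers 3 passed the filter, 1 fell and 1 rose, where 20.9% of all tested genes fell and 17.1% rose. The summed level was 18.3 to 29.1 CPM for the mutant and 13.8 to 14.8 CPM for wild type. By total counts the direction of this sum turned, with 13.9 to 19 CPM for the mutant and 19.4 to 21.7 CPM for wild type. The gene that fell was plg-1, which is needed for the copulatory plug, with 1, 3 and 1 counts in the mutant and 15, 10 and 13 in wild type (edgeR adjusted p = 0.0367). Leaving out any library ended this call. The gene that rose was mab-3, a regulator of male traits, at 5.59, 14.5 and 13.6 CPM in the mutant and 1.53, 2.92 and 1.06 CPM in wild type (6.15-fold; edgeR adjusted p = 0.00600). All mutant libraries were above all wild-type libraries, with replicate 1 the lowest of the mutant. The seminal fluid protease gene try-5 was near the floor in both groups, at 0.0856 and 0.247 CPM on average. Of 8 tested somatic gonad markers none was called by edgeR, with 1 lower and 1 higher at an unadjusted p under 0.05, and the sums were 374 to 500 CPM for the mutant and 529 to 638 CPM for wild type, without overlap. By total counts 6 of the 8 fell, where 56.3% of all tested genes fell, and the sum was 2.53-fold lower. By TMM, 1 was called lower without wild type replicate 1 or wild type replicate 2, and 1 higher without mutant replicate 1. The part of these tissues in the members' values was not tested.

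**Figure D5:**
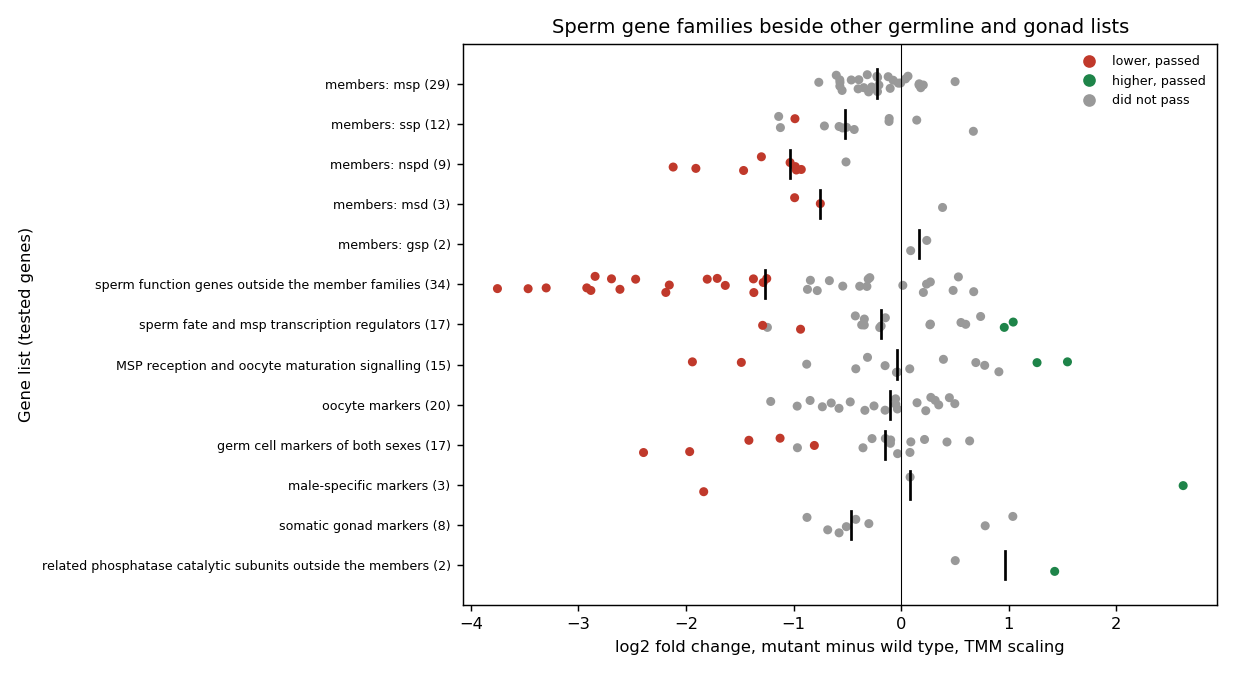
Log2 fold change (mutant minus wild type, edgeR with TMM scaling) of every tested gene of each member family and of each list of other genes, with the median of each as a vertical bar. The nspd genes (median -1.03) and the sperm function genes outside the families (median -1.27) lie lower than the msp genes (median -0.22) and the oocyte markers (median -0.10).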

How the data were processed

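The authors deposited raw counts of reads per WormBase gene, 1 file per library, and the submitters' processing notes name HTSeq and DESeq2. The sources used here give no aligner, genome build, annotation, strand setting or version. The WBcel235 annotation of Ensembl release 115 held 46863 of the 46911 identifiers and a symbol for 44059, and supplied the 1-based coordinates. Its models of nearly all members hold coding length only (55 of 59 are multiples of 3).

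The main test was the quasi-likelihood test of edgeR 4.0.16 (R 4.3.3) with TMM factors, the default filter, a robust fit and Benjamini-Hochberg adjustment over all tested genes. Alternatives were total-count scaling, DESeq2 size factors, DESeq2 1.42.0, limma-voom (3.58.1), factors without the members, no filter, a replicate block and leaving out each library. Family sums include untested members. No replicate pair was alike within counting error, with a chi-square of 31.9 to 255 per degree of freedom. Ribosomal RNA took 0.394% to 12.7% of counts. A floor of 3 counts was used, which covers counting error only.

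The members and lists were chosen with earlier results of these data known. Named members were gsp-3, gsp-4 and, per family, the 4 with the highest CPM and those with the largest and smallest log2 fold change. In other lists, up to 2 called genes in each direction were named by size of fold change (at least 1 CPM in the higher group), besides genes named for their role. Other members named, and glh-2, him-3, syp-2 and plg-1, were chosen after their values were seen.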

Additional observations from a re-analysis of the deposited data

How the results depend on the processing

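The number of members called lower was 11 by TMM, 34 by total counts, and 3 to 21 when each library was left out, with 3 without mutant replicate 2 or 3, 5 without wild type replicate 3 and 21 without mutant replicate 1. It was 9 to 11 under the other alternatives, and no member was called higher in any. Over all genes, 3035 were lower and 2476 higher, against 8169 and 499 by total counts, 1424 and 1402 without mutant replicate 2, 1432 and 1359 without mutant replicate 3, and 1882 and 1584 without wild type replicate 3. By total counts the log2 ratios of the family sums were -1.12 for msp, -1.79 for msd, -1.29 for ssp, -1.99 for nspd and -0.85 for gsp-3 with gsp-4. Leaving out each library gave -0.57 to 0.19 for msp, -0.93 to -0.50 for msd, -0.51 to 0.0042 for ssp, -1.12 to -0.77 for nspd and -0.04 to 0.37 for gsp-3 with gsp-4.

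By total counts all 12 members with a positive TMM value, none of them called, turned negative. Among named genes not called by TMM, the direction turned to log2 fold changes of -0.13 for unc-30, -0.76 for gsp-4, -0.92 for gsp-3, -0.81 for msp-31, -0.94 for msp-40, -0.59 for msd-1 WBGene00009684, -0.83 for ssp-10, -0.48 for msp-142, -0.61 for vab-1 and -0.48 for cpg-2, an oocyte marker, and for fem-2, called higher by TMM, to -0.052. The value of msp-77, close to 0, was 0.047 with DESeq2 size factors, 0.047 with DESeq2 and 0.00081 with limma-voom. When each library was left out, directions turned within these ranges: gsp-3 -0.12 to 0.29, msp-31 -0.21 to 0.56, msp-81 -0.37 to 0.29, msp-40 -0.19 to 0.38, msp-36 -0.32 to 0.19, msp-77 -0.26 to 0.35, msd-1 WBGene00009684 -0.27 to 0.75, ssp-10 -0.17 to 0.55, ssp-16 -0.27 to 0.091, ssp-9 WBGene00006040 -0.35 to 0.16 and cpg-2 -0.61 to 1.12. The cause was not tested.

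Samples share replicate numbers, but same-numbered samples deviated together in only 2 of 3 pairs (r = 0.46, 0.44 and -0.07), so the numbers were not taken to pair them. With the replicate block, 11 members were lower and 0 higher, and 6 of 20 oocyte markers were called lower against 0 without the block, with 3713 lower and 3230 higher over all genes. Counts of single low genes, such as those of ssp-37, limit their precision.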
